A study of Solanum lycopersicum with 4 samples.

Results

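Transcript levels of 9 NAC transcription factor genes were followed in tomato leaves kept at 10 °C for up to 48 h, which is cold for this chilling-sensitive crop. The genes were taken from a list of 9 identifiers, matched before the first dot, and 9 of 9 were listed in every library, out of 26219 genes listed in any. They are NAC1 (Solyc04g009440, chromosome 4), JA2 (Solyc12g013620, chromosome 12), JA2L (Solyc07g063410, chromosome 7), NAC4 (Solyc11g017470, chromosome 11), ORE1S02 (Solyc02g088180, chromosome 2), ORE1S03 (Solyc03g115850, chromosome 3), ORE1S06 (Solyc06g060230, chromosome 6), NAP1 (Solyc05g007770, chromosome 5) and NAP2 (Solyc04g005610, chromosome 4). Chromosomes are as the identifiers give them. The names came with the list. In RefSeq (assembly SLM_r2.1), 6 of them were gene symbols, 5 on the same chromosome, but its NAC4 is a gene on chromosome 7. Solyc11g017470 is therefore a different locus from RefSeq's NAC4, and NAC4 below means that identifier only. RefSeq held no ORE1 name among these genes, and none of its 41476 entries carried an identifier of the kind used in the files.

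The libraries were made from the first pair of true leaves of cultivar Moneymaker at 0, 3, 24 and 48 h, with 1 library per time. Seedlings germinated for 5 days in the dark and then grew for 16 days at 25 °C with 12 h of light per day at 100 µmol m-2 s-1. The treatment at 10 °C kept the 12 h day but lowered the light to 40 µmol m-2 s-1, so temperature and light cannot be told apart. By its time, the 3 h library was also due at another hour of day than the other libraries. How many plants went into a library, and how the 0 h leaves were kept until harvest, is not given in the sources used here. Whether the tissue matched leaf markers was not checked, because no source paired the identifiers with marker names.

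NAC proteins are plant-specific transcription factors that share a conserved DNA-binding domain at the N-terminus. Many respond to abscisic acid, jasmonate, cold, drought or pathogens, and one group promotes the ordered breakdown of ageing leaves. In tomato, JA2 and JA2L are known for opposite roles in guard cells: JA2 promotes stomatal closure in response to abscisic acid, and JA2L promotes stomatal reopening in response to the bacterial toxin coronatine, a jasmonate mimic. The ORE1 genes are the tomato relatives of Arabidopsis ORE1, a senescence promoter that is held down by a microRNA, and NAP1 and NAP2 are relatives of Arabidopsis NAP, another senescence promoter.

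The libraries held between 35.7 M (24 h) and 38.5 M (0 h) unique reads, where M is 1000000, and scaling factors for their composition (TMM, trimmed mean of M values) lay between 0.90 and 1.12. Levels of one gene over time are given as scaled CPM, meaning counts for every 1000000 reads after scaling. Folds of single genes are ratios of scaled counts with exact Clopper-Pearson intervals (95%). These intervals cover counting error only, because no time has a replicate. They do not show how far leaves of different plants would differ, no p-value can be given, and each statement is about these libraries. In such bulk samples fewer cells of a type and less RNA per cell cannot be told apart.

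The 9 genes followed several courses in the cold. NAC1 was high at 3 h and stayed above its 0 h level, JA2 was high at 24 and 48 h only, and JA2L was high at 3 h and near its 0 h level at 24 h. NAC4 and the 3 ORE1 genes were higher by smaller factors, and ORE1S06 was at least 2-fold higher at each of the 3 later times. NAP1 was 4.22-fold lower at 24 h than at 0 h, while NAP2 stayed within 2-fold of 0 h throughout.

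**Figure D1:**
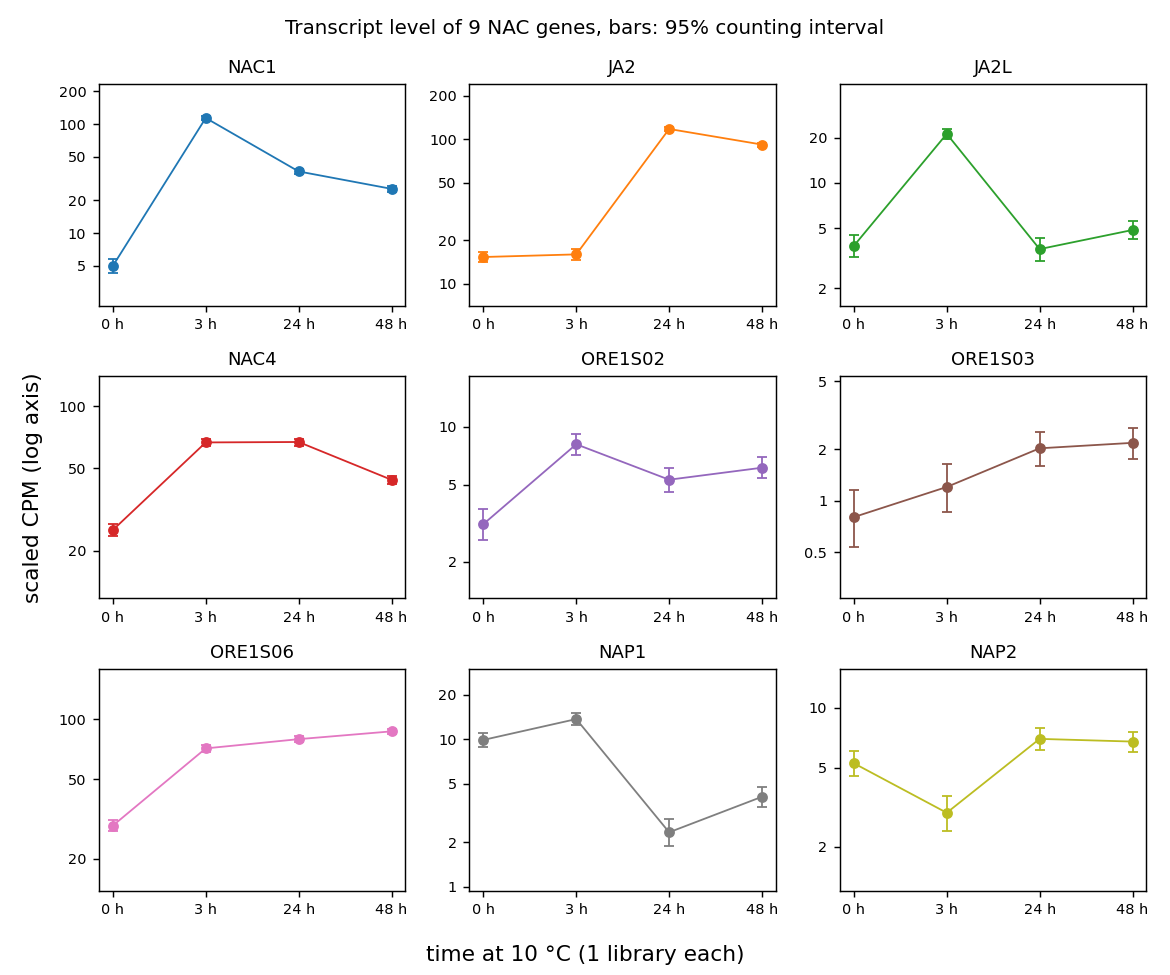
Scaled CPM (vertical log axis, with its own range in each panel) of the 9 NAC genes at 0, 3, 24 and 48 h at 10 °C (horizontal axis, not to scale in time); points are single libraries and bars are 95% exact Poisson intervals of the count. NAC1 and JA2L are highest at 3 h, JA2 at 24 h, ORE1S06 at 48 h, and NAP1 and NAP2 move in opposite directions.

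NAC1, known in tomato as a partner of the replication enhancer protein of a geminivirus, had 181 reads (0 h), 3687 (3 h), 1399 (24 h) and 1063 (48 h). Its scaled levels were 5.01, 114, 36.8 and 25.5 CPM in the same order. The 3 h level was the highest and the 0 h level the lowest, and each step between neighbouring levels exceeded counting error. NAC1 was 22.7-fold higher at 3 h than at 0 h (interval 19.6 to 26.5), which ranked 16 from the highest among the 13840 genes compared. It was 7.35-fold higher at 24 h than at 0 h (6.29 to 8.63) and 5.09-fold higher at 48 h than at 0 h (4.34 to 5.99). Against 3 h, its level at 24 h was 3.09-fold lower (2.91 to 3.29). Only 27 of the genes compared, 0.195%, were at least 4-fold above 0 h at all 3 later times, and NAC1 was the only one of the 9 among them.

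JA2 had 553 reads (0 h), 517 (3 h), 4475 (24 h) and 3831 (48 h), or 15.3, 16.0, 118 and 91.8 scaled CPM. Its levels at 3 and 0 h did not differ beyond counting error, with a fold of 1.04 at 3 h over 0 h (0.923 to 1.18). JA2 was thus flat where NAC1 was at its highest. At 24 h it was 7.70-fold higher than at 0 h (7.04 to 8.42) and 7.38-fold higher than at 3 h (6.74 to 8.10), and its ratio to 3 h ranked 53 from the highest of 13840. At 48 h it was 6.0-fold higher than at 0 h (5.49 to 6.57), and 1.28-fold lower than at 24 h (1.23 to 1.34). It belonged to the 133 genes, 0.961% of those compared, that were at least 4-fold above 0 h at 24 h and at 48 h but not 2-fold from it at 3 h.

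JA2L had 138 reads (0 h), 685 (3 h), 138 (24 h) and 203 (48 h), or 3.82, 21.1, 3.63 and 4.87 scaled CPM. Only the 3 h library stood out. JA2L was 5.54-fold higher at 3 h than at 0 h (4.61 to 6.70), ranking 115 from the highest of 13840. Its level at 24 h was 5.82-fold lower than at 3 h (4.84 to 7.04), and the 24 h and 0 h levels did not differ beyond counting error, with a fold of 0.951 (0.746 to 1.21). At 48 h it was 1.27-fold higher than at 0 h, with an interval of 1.02 to 1.59 that came close to no difference. JA2L was among the 90 genes, 0.650% of those compared, that were at least 4-fold above 0 h in the 3 h library but within 2-fold of it in both later ones. It reached the minimum mean of 5 CPM for this comparison through the 3 h library alone, with a mean of 4.11 CPM over the other 3.

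The balance between JA2 and JA2L can be read within each library, where the scaling of libraries cancels. Per gene length, in RPKM as the authors deposited it (reads for each kilobase of gene and each 1000000 reads of the library), JA2 was at 13.7 and JA2L at 2.55 at 0 h, a ratio of 5.37 (4.45 to 6.51). At 3 h the values were 13.6 and 13.5 RPKM, a ratio of 1.01 whose interval of 0.900 to 1.13 included equal levels. At 24 h JA2 stood at 119 RPKM and JA2L at 2.75, a ratio of 43.4 (36.7 to 51.8), and at 48 h the ratio was 25.3 (21.9 to 29.2). The ratio was therefore lowest at 3 h and highest at 24 h, and the 4 intervals did not overlap. NAC1 set against JA2 was below 1 at 0 h (0.260), 24 h (0.249) and 48 h (0.221), and was 5.67 (5.17 to 6.23) at 3 h.

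**Figure D2:**
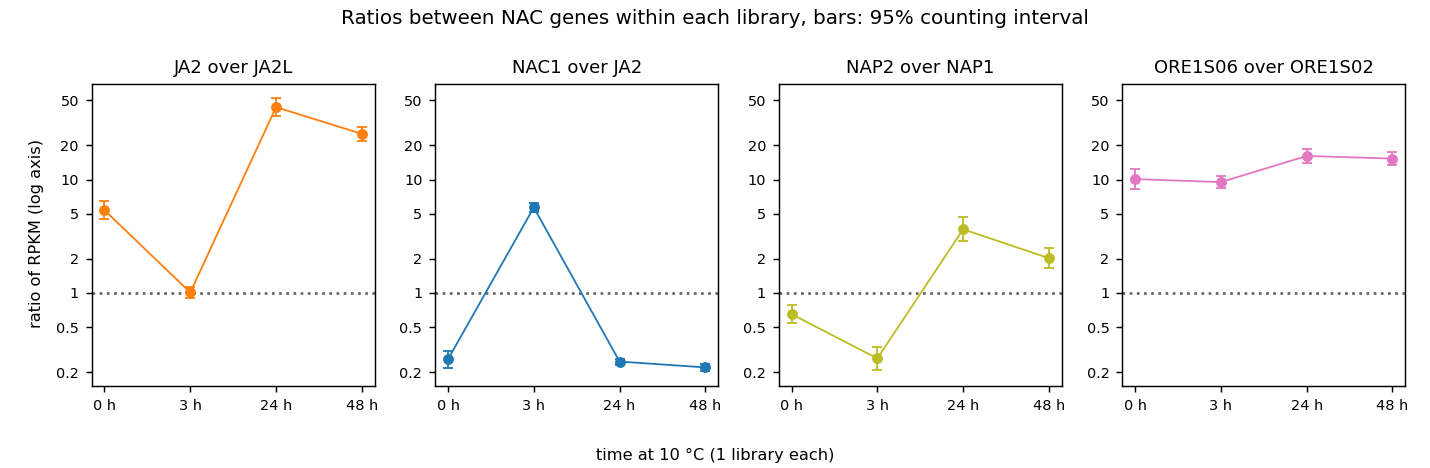
Ratio of RPKM between pairs of NAC genes within each library (vertical log axis) at 0, 3, 24 and 48 h (horizontal axis); bars are 95% counting intervals and the dotted line marks equal levels. JA2 over JA2L is 1.01 at 3 h and 43.4 at 24 h, NAC1 over JA2 exceeds 1 at 3 h alone, NAP2 over NAP1 crosses 1 between 3 and 24 h, and ORE1S06 over ORE1S02 stays between 9.49 and 16.1.

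NAC4 had 911 reads (0 h), 2162 (3 h), 2548 (24 h) and 1838 (48 h), or 25.2, 66.7, 67.1 and 44.1 scaled CPM. It was 2.65-fold higher at 3 h than at 0 h (2.45 to 2.86) and 2.66-fold higher at 24 h than at 0 h (2.47 to 2.87). The 24 and 3 h levels did not differ beyond counting error, with a fold of 1.00 (0.948 to 1.06). That near equality depends on the scaling: with plain library totals the log2 ratios to 0 h were 1.34 (3 h) and 1.59 (24 h). At 48 h NAC4 was 1.75-fold higher than at 0 h (1.61 to 1.89), below the 2-fold limit, with a log2 ratio of 0.80. Scaled by plain library totals, that log2 ratio was 1.05, past the limit.

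Among the ORE1 genes, ORE1S06 held most of the reads. It had 1059 reads (0 h), 2319 (3 h), 3027 (24 h) and 3637 (48 h), or 29.3, 71.6, 79.7 and 87.2 scaled CPM. Each level was above the one before it by more than counting error, with the first step the largest at 2.44-fold for 3 h over 0 h (2.27 to 2.63). The next steps were 1.11-fold for 24 h over 3 h (1.05 to 1.18) and 1.09-fold for 48 h over 24 h (1.04 to 1.15). At 48 h ORE1S06 was 2.97-fold higher than at 0 h (2.78 to 3.19). NAC1 and ORE1S06 were the members among the 173 genes, 1.25% of those compared, that were at least 2-fold above 0 h at all 3 later times.

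ORE1S02 had 113 reads (0 h), 263 (3 h), 202 (24 h) and 256 (48 h), or 3.13, 8.12, 5.32 and 6.14 scaled CPM. Its highest level was that at 3 h, 2.60-fold above 0 h (2.07 to 3.27), and the levels at 48 and 24 h did not differ beyond counting error. It was 1.70-fold higher at 24 h than at 0 h (1.34 to 2.16) and 1.96-fold higher at 48 h than at 0 h (1.57 to 2.47). Its log2 ratio at 48 h, 0.94, lay just inside the 2-fold limit and was 1.19 with plain library totals.

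ORE1S03 was the least abundant of the 9, with 29 reads (0 h), 39 (3 h), 77 (24 h) and 91 (48 h), and a mean of 1.55 scaled CPM. It was the one member below the minimum mean of 5 CPM set for the comparison of all genes. Its level at 48 h was 2.72-fold that at 0 h (1.77 to 4.28) and its level at 24 h 2.53-fold that at 0 h (1.63 to 4.02), while 3 h over 0 h was 1.5, and its interval (0.904 to 2.52) held equal levels. With a pseudocount of 25 reads in place of 5, its log2 ratios at 24 and 48 h were 0.87 and 0.95, short of 2-fold. Per gene length, ORE1S06 exceeded ORE1S02 by between 9.49-fold (3 h) and 16.1-fold (24 h), and ORE1S02 exceeded ORE1S03 by between 2.64-fold (24 h) and 6.79-fold (3 h). The order of these 3 genes was the same in all 4 libraries.

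NAP1 and NAP2 moved in opposite directions. NAP1 had 357 reads (0 h), 443 (3 h), 89 (24 h) and 170 (48 h), or 9.88, 13.7, 2.34 and 4.07 scaled CPM. It was 1.38-fold higher at 3 h than at 0 h (1.20 to 1.60), then 4.22-fold lower at 24 h than at 0 h (3.34 to 5.38) and 2.42-fold lower at 48 h than at 0 h (2.01 to 2.93). Against 3 h, its level at 24 h was 5.84-fold lower (4.64 to 7.42). From there it was 1.74-fold higher at 48 h than at 24 h (1.34 to 2.27), which ranked 297 from the highest of 13840. NAP1 was the only one of the 9 that lay at least 2-fold below its 0 h level at any time.

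NAP2, which in tomato is known to promote leaf senescence and to act on chlorophyll breakdown and abscisic acid genes, had 190 reads (0 h), 96 (3 h), 265 (24 h) and 282 (48 h). These were 5.26, 2.96, 6.97 and 6.76 scaled CPM. It was lowest at 3 h, 1.77-fold below 0 h (1.38 to 2.29), which ranked 308 from the lowest of 13840. At 24 h it was 2.35-fold higher than at 3 h (1.86 to 3.00) and 1.33-fold higher than at 0 h (1.10 to 1.61), and the 24 and 48 h levels did not differ beyond counting error. Per gene length NAP2 was below NAP1 at 0 h (4.61 RPKM for NAP2, 7.08 for NAP1) and at 3 h (2.48 for NAP2, 9.38 for NAP1). It was above NAP1 at 24 h (6.93 RPKM for NAP2, 1.90 for NAP1) and at 48 h (7.06 for NAP2, 3.48 for NAP1). The ratio of NAP2 to NAP1 was 0.651 (0.543 to 0.778), 0.265 (0.210 to 0.331), 3.64 (2.85 to 4.68) and 2.03 (1.67 to 2.47) at 0, 3, 24 and 48 h. The sum of the pair was 11.7, 11.9, 8.84 and 10.5 RPKM in the same order.

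**Figure D3:**
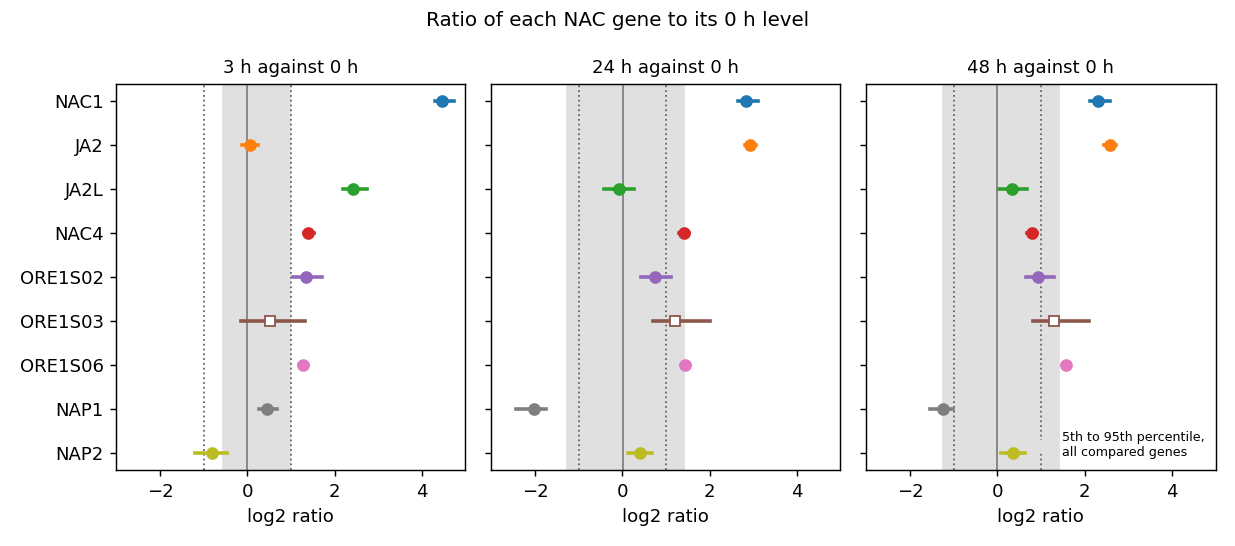
Log2 ratio of each NAC gene at 3, 24 and 48 h to its 0 h level (horizontal axis, with a pseudocount of 5 reads); lines are 95% counting intervals without the pseudocount, the grey band spans the 5th to 95th percentile of all 13840 genes compared, the solid line is their median and dotted lines mark 2-fold. The open square is ORE1S03, which was below the minimum level; NAC1 and ORE1S06 lie right of the band in all 3 panels, JA2L, NAC4 and ORE1S02 at 3 h and JA2 at 24 and 48 h, while NAP2 lies left of it at 3 h and NAP1 at 24 h.

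Members past 2-fold were counted beside all genes compared. For these counts a log2 ratio with a pseudocount of 5 reads was used, over genes listed in all 4 libraries with a mean of at least 5 CPM, which 8 of the 9 members passed. ORE1S02, with a mean of 5.67 CPM, and NAP2, with 5.49 CPM, passed narrowly. At 3 h against 0 h, 5 of the 8 were at least 2-fold higher (NAC1, JA2L, NAC4, ORE1S02 and ORE1S06), beside 4.76% of all genes compared, and 0 were at least 2-fold lower, beside 1.13%. At 24 h against 0 h, 4 were higher (NAC1, JA2, NAC4 and ORE1S06), beside 9.65%, and 1 was lower (NAP1), beside 8.28%. At 48 h against 0 h, 3 were higher (NAC1, JA2 and ORE1S06), beside 10.0%, and 1 was lower (NAP1), beside 8.48%. These 3 comparisons share the 0 h library. JA2L and ORE1S02 passed the minimum level only through their 3 h values, with means of 4.11 and 4.86 CPM over the other 3 libraries. With the minimum applied to the mean over 0, 24 and 48 h, a choice made after seeing the data, 3 of 6 members were at least 2-fold higher at 3 h than at 0 h, beside 4.04% of 13758 genes. The members were picked with earlier results of these data in view, so the counts describe the list and carry no test.

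Between the later libraries, 24 h against 3 h, 2 members were at least 2-fold higher (JA2 and NAP2), beside 8.24% of all genes, and 3 were lower (NAC1, JA2L and NAP1), beside 9.45%. NAP2 passed the minimum of 5 CPM only through its 24 h value, and JA2L only through its 3 h value. Both calls therefore lean on the filter, and this comparison was not recounted without those values. Between 48 h and 24 h, 0 of the 8 were 2-fold higher or lower, beside 1.12% and 1.47%. The smaller steps between these 2 libraries went both ways, with intervals above no difference for JA2L, ORE1S06 and NAP1 and below it for NAC1, JA2 and NAC4. Over all 9 members, without a minimum level, the median log2 ratio to 0 h came to 1.28 (3 h), 1.20 (24 h) and 0.94 (48 h). The same median over the 22488 genes listed in all 4 libraries was -0.011, -0.012 and -0.031.

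The make-up of the 9 by level per length differed between the libraries. Their RPKM summed to 83.0 (0 h), 242 (3 h), 315 (24 h) and 274 (48 h). The most abundant member was NAC4 at 0 h (27.0 RPKM, 32.5% of the sum), NAC1 at 3 h (77.4 RPKM, 32.0%) and JA2 at 24 h (119 RPKM, 37.9%) and 48 h (97.7 RPKM, 35.7%). NAC1 ranked 6 of 9 at 0 h. The 3 ORE1 genes together kept between 23.2% (24 h) and 30.7% (48 h) of the sum, while NAP1 and NAP2 together had between 2.81% (24 h) and 4.91% (3 h) at the later times, against 14.1% at 0 h. The NAP pair itself stood at 11.7 RPKM (0 h) and 11.9 (3 h), so its smaller share at 3 h reflects the larger sum. With the TMM factors applied, the sums of the 9 were 88.5, 270, 296 and 245 at 0, 3, 24 and 48 h, so the 24 h sum was the highest on either scale.

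**Figure D4:**
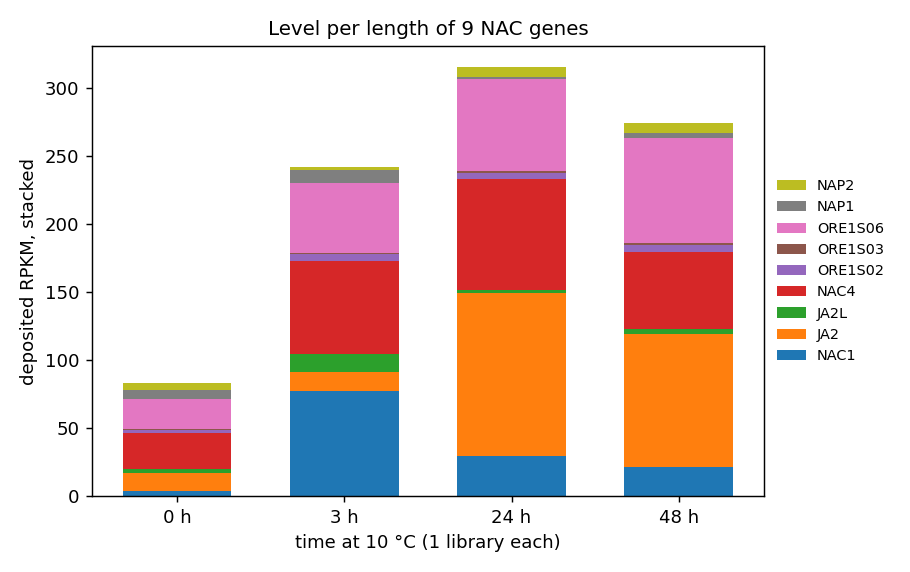
Stacked RPKM as deposited (vertical axis) of the 9 NAC genes in the library of each time at 10 °C (horizontal axis). The sums are 83.0 (0 h), 242 (3 h), 315 (24 h) and 274 (48 h); NAC1 is the largest part at 3 h, and JA2 at 24 and 48 h.

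Likeness between courses was measured as the root mean square difference of the log2 ratios to 0 h over the 3 later times. NAC4 and ORE1S02 had the most similar courses of any pair of members, at 0.39, followed by NAC4 and ORE1S06 at 0.45. NAC1 had no close partner, its nearest member being ORE1S06 at 2.06, and NAC1 and NAP1 were the farthest pair at 4.18. JA2 and JA2L were 2.56 apart. Among 13832 other genes, the nearest course to that of JA2 was Solyc11g069700.1.1 at 0.06, whose log2 ratios were 0.02 (3 h), 2.94 (24 h) and 2.47 (48 h). The nearest to NAC1 was Solyc08g016440.2.1 at 0.44, whose log2 ratios were 3.92 (3 h), 2.34 (24 h) and 2.18 (48 h). These are the closest of many genes over 3 ratios from single libraries, and the sources used here give no name for them.

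Genes listed next to the members by identifier were counted in the same way. Of the 5 listed genes on either side of each member, 90 in all, 45 passed the minimum level. At 3 h against 0 h, 0 of these 45 were at least 2-fold higher and 0 lower, beside 4.76% and 1.13% of all genes. At 24 h against 0 h, 1 was higher (2.22%, beside 9.65% of all genes) and 6 were lower (13.3%, beside 8.28%). At 48 h against 0 h, 2 were higher (4.44%, beside 10.0%) and 4 were lower (8.89%, beside 8.48%). Of the lower genes, 3 at 24 h and 2 at 48 h were among the 7 tested neighbours of JA2L. With 45 genes these shares are coarse. Reads covered between 73.2% and 99.9% of the length of the 8 members above the minimum level, and between 51.4% (3 h) and 82.3% (48 h) of ORE1S03. How evenly the reads lay along each gene was not tested. The strand setting of the counts is not known here, so reads from an overlapping gene on the other strand cannot be told from those of a member.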

How the data were processed

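Each deposited file lists genes with a count of uniquely assigned reads, a gene length, a coverage percent and RPKM, per the file headers. The authors' RPKM equals the count divided by length and library total. Library preparation was Illumina's standard one, per the labels' protocols. The aligner, counter, strand setting, build and filters were not stated in any source at hand. If unique means that reads matching several genes were left out, stretches shared between NAC genes are undercounted.

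From the deposited counts, TMM factors were computed with edgeR 4.0.16 in R 4.3.3, used for scaling only. Log2 ratios used CPM plus a pseudocount of 5 reads (0.135 CPM), which understates the ratios of low genes. Of 26219 genes listed, 13840 were listed in all 4 libraries with a mean of at least 5 CPM. A ratio of at least 2-fold was counted, and the share of all genes past it is given beside. All 9 members are named. The computation was tested on simulated data. The members, gene lists and limits were chosen with earlier results of these data known. A further list of related genes and the motif search were not used, since no source paired the identifiers with names and no sequences were at hand. Alternatives were DESeq2 1.42.0 size factors, plain totals, pseudocounts of 0.5 and 25 reads, other minimum levels, a 4-fold limit and absent genes taken as 0.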

Additional observations from a re-analysis of the deposited data

Results flagged for a closer look

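NAP1 and NAP2 were singled out because each lay on opposite sides of its 0 h level early and late in the cold, with counting intervals that excluded no difference on either side. For NAP1 the log2 ratio to 0 h was 0.46 (3 h), -2.02 (24 h) and -1.25 (48 h). For NAP2 it was -0.80 (3 h), 0.40 (24 h) and 0.35 (48 h), so the 2 genes went opposite ways at every time. The later NAP2 ratios were not unusual: of all genes compared, 71.0% (24 h) and 69.4% (48 h) had lower ones. The 3 ratios of a gene share the 0 h library. Because no time has a second library, this change of side was not tested against variation among plants. Cold, lower light and, at 3 h, the hour of day cannot be told apart in it.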

How the results depend on the processing

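No paired analysis was possible because there is a single library per time, which also means that none could be left out. Counts of members past 2-fold stayed within 1.5 times of those reported with DESeq2 size factors, with either pseudocount and without a minimum level. Leaving out the minimum level compared 9 members among 22488 genes, which added ORE1S03. Then 5 members were higher at 24 h than at 0 h, beside 10.1%, and 4 at 48 h, beside 10.4%. Taking absent genes as 0 added no gene, so it tests nothing. Plain library totals shift all genes by a median log2 of 0.20 (24 h) and 0.26 (48 h) against 0 h. They gave 5 members higher at 48 h than at 0 h instead of 3, adding NAC4 and ORE1S02. The share of all genes higher at 48 h than at 0 h was 15.6% with them, against 10.0% as reported. A minimum of 20 CPM left 4 members to compare. At 3 h against 0 h it gave 3 different (3 higher), beside 5.13% different and 4.63% higher of 7490 genes. Against 0 h it gave 0 lower at 24 h, beside 7.53%, and 0 lower at 48 h, beside 8.22%. At 24 h against 3 h it gave 2 different, beside 17.4% (1 higher, beside 8.0%, and 1 lower, beside 9.36%). With 4 members such counts are coarse. A minimum of 5 CPM over 0, 24 and 48 h, chosen after seeing the data, left 6 members, since JA2L and ORE1S02 drop out. Of these 6, 3 were different at 3 h against 0 h (3 higher), beside 5.25% different and 4.04% higher of 13758 genes. Against 0 h, the 4-fold limit gave 2 different at 3 h, beside 1.48% of all genes (2 higher, beside 1.42%). It gave 3 different at 24 h, beside 3.56% (2 higher, beside 2.17%). At 48 h it gave 2 different, beside 3.35% (2 higher, beside 2.06%, and 0 lower, beside 1.29%). At 24 h against 3 h it gave 3 different, beside 4.27% (1 higher, beside 1.78%). By construction, the 20 CPM minimum and the 4-fold limit can only keep or lower these counts. The minimum over 0, 24 and 48 h is not bound to do so, since it can also admit genes. A changed pseudocount cannot turn the sign of a ratio, so only DESeq2 size factors and plain totals could do so. Of 108 recomputed ratios to 0 h, those with other pseudocounts included, 106 kept their sign. The other 2, with plain totals, were near 0 in either setting: JA2 at 3 h (0.06 as reported, -0.0035 then) and JA2L at 24 h (-0.07 as reported, 0.11 then).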
